A study of Mus musculus with 8 samples.

Results

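The genes described here are 9 members of the TSLP and type 2 cytokine axis, chosen by name from a count table of 46983 gene identifiers: the alarmin genes Tslp and Il33 and the receptor genes Crlf2, Il7r, Il1rl1, Il4ra, Il13ra1, Il13ra2 and Il2rg. All 9 were found in the table. RNA came from tail epidermis of 8 mice aged 8 weeks, peeled from the dermis after dispase treatment, with 1 library per mouse. The 4 SKO mice had the genotype K14-Cre/+ Ppp1r8 fl/-, and the 4 CTR mice had the genotype K14-Cre/+ Ppp1r8 fl/+. Mice of both groups thus carried the Cre transgene, driven by the keratin 14 promoter of basal keratinocytes, and a floxed allele of Ppp1r8, which encodes NIPP1, a nuclear protein that binds the phosphatase PP1. All 8 came from a strain labelled with the transgene Tg(KRT14-cre)1Amc/J and with the Ppp1r8 alleles Ppp1r8tm1Ave and Ppp1r8tm1.1Itl. The difference lay in the other allele, written as - in SKO and + in CTR. Cells of the sheet without keratin 14 promoter activity, such as resident leukocytes, are no target of this Cre. The - allele is part of the genotype of the SKO mice, so such cells also differed in it between the groups.

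TSLP and IL-33 are cytokines that epithelial cells release on damage or barrier stress. TSLP binds a receptor made of CRLF2 (TSLPR) and the IL-7 receptor alpha chain, and acts on dendritic cells, T cells and group 2 innate lymphoid cells. IL-33 is stored in the nucleus and binds ST2, the product of Il1rl1. IL-4 and IL-13, the effector cytokines of this axis, signal through IL-4R alpha paired with the common gamma chain (Il2rg), found on leukocytes, or with IL-13R alpha 1, found on keratinocytes and other non-haematopoietic cells, while IL-13R alpha 2 binds IL-13 as a decoy.

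Both alarmin genes and the receptor chains Il7r and Il2rg rose in SKO epidermis. The receptor chains Crlf2, Il4ra, Il13ra1 and Il13ra2 did not pass the test, and Il1rl1 fell below the count filter. Levels are given as CPM, read counts scaled to the library's effective size (trimmed mean of M values), and changes are log2 fold changes of SKO over CTR from edgeR's quasi-likelihood test, with Benjamini-Hochberg adjustment over all 15638 genes tested. Of the 9 members, 8 passed the count filter, and 4 of these were called higher and 0 lower at an adjusted p of 0.05, where 11.5% of all tested genes were called higher and 12.2% lower. Tslp and Il2rg passed the filter through SKO libraries: 0 and 1 of the 4 CTR libraries reached its minimum of 0.518 CPM. For this reason neither the count of 4 nor the counts of members given next are read as a property of the axis. Of the called members, Tslp, Il2rg and Il7r rose at least 2-fold, as did 2.42% of all tested genes. The groups did not overlap for 4 of the 8 tested members, against 26.2% of all tested genes. Without the count filter, which let Il1rl1 into the fit (edgeR adjusted p = 0.0791), the same 4 members were called higher and 0 lower, where 6.53% of genes were called higher and 7.05% lower.

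**Figure D1:**
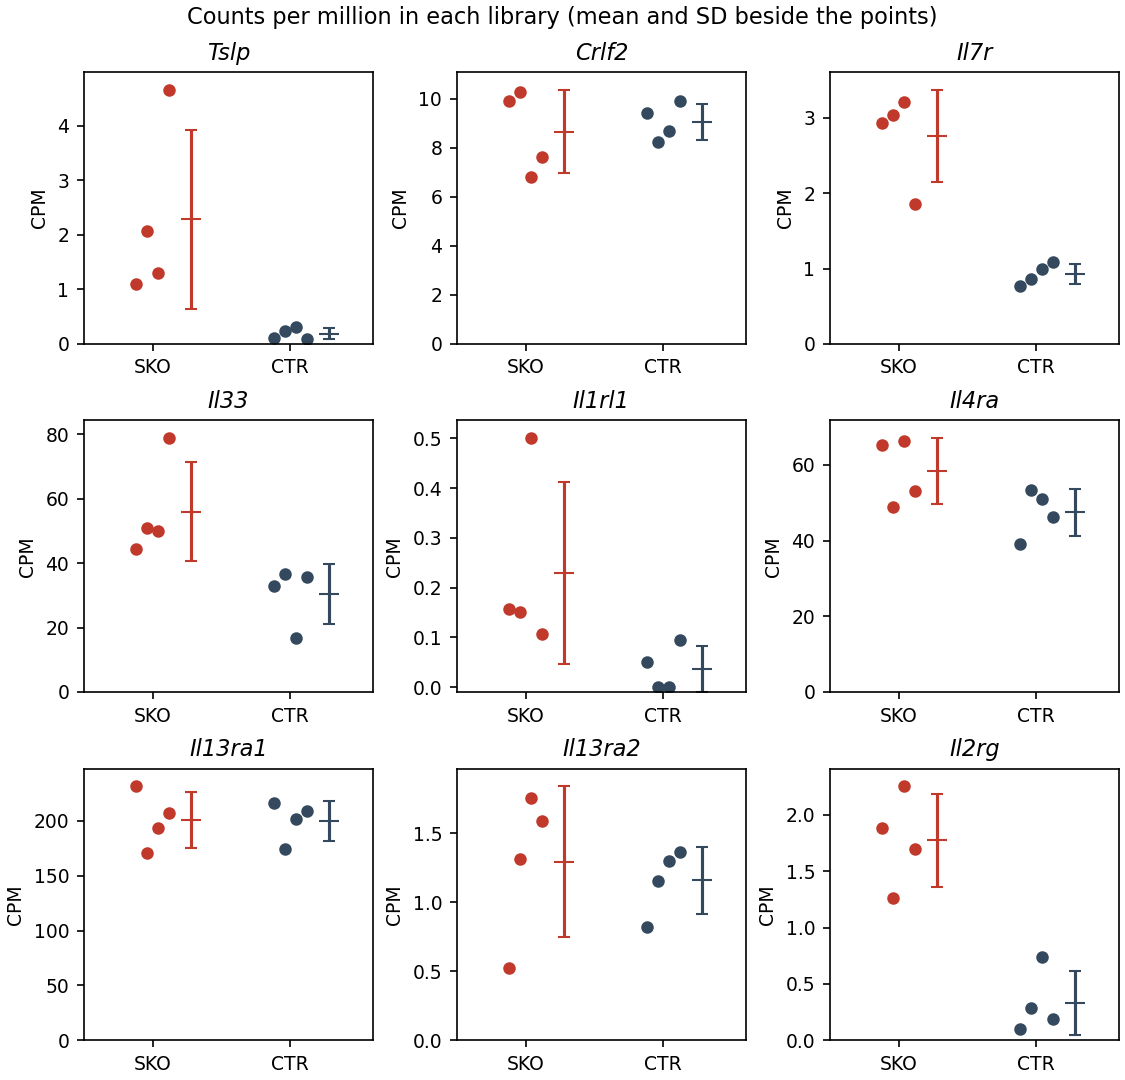
CPM of each of the 9 genes (vertical axes, linear, a scale for each gene) in the 4 SKO libraries (red) and the 4 CTR libraries (dark blue), with the mean and SD beside the points. The groups are apart for Tslp, Il7r, Il33 and Il2rg and overlap for Crlf2, Il4ra, Il13ra1 and Il13ra2. For Il1rl1 they are apart only after scaling, since SKO 4 and CTR 4 both had 2 counts.

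Library totals were 18649079 to 20500885 counts in SKO and 16696212 to 21571935 counts in CTR, so that 3 counts corresponded to 0.141 to 0.186 CPM in a library and to 0.0386 CPM over the 4 libraries of a group, the floor used here, which covers counting error only. Keratinocyte identity was clear: Krt5, a basal keratin, had 8341 ± 209 CPM in SKO and 8792 ± 678 CPM in CTR (SD, n = 4 each). The targeted gene Ppp1r8 had 36.4 ± 8.00 CPM in SKO and 37.9 ± 3.58 CPM in CTR (SD, n = 4 each), with an edgeR adjusted p of 0.789, and since the labels do not say which exons Cre removes, this does not check the genotype. Kdm5d, Uty, Ddx3y and Eif2s3y, genes of the Y chromosome, had 0 counts in all 8 libraries. Nothing in the labels ties mice to litters, and p-values measure the spread between these mice.

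Tslp (ENSMUSG00000024379.3, chromosome 18, 32815383 to 32819797, plus strand, GRCm38) was close to the floor in CTR and rose in every SKO library. It had 1.1, 2.07, 1.30 and 4.66 CPM in SKO 1 to 4, against 0.102, 0.241, 0.309 and 0.0941 CPM in CTR 1 to 4. The lowest SKO library thus stood above the highest CTR library, and SKO 4 stood far above the other SKO libraries. These values rest on 176 counts over the SKO libraries and 14 counts over the CTR libraries, 12.6 times as many after scaling to library sizes (95% counting interval 7.30 to 23.5). The log2 fold change was 3.61 (SE 0.60, 95% interval 2.28 to 4.93, edgeR adjusted p = 0.00311), or 12.2-fold, with all 4 SKO libraries higher. Without SKO 4 the rise was 8.00-fold (edgeR adjusted p = 0.00305). In bulk tissue, more cells of a type and more RNA per cell cannot be told apart. The summed level of 10 markers of keratinocytes, which make TSLP and IL-33 in skin, was 64258 to 81737 CPM in SKO and 40998 to 45813 CPM in CTR. The suprabasal keratin genes Krt1 and Krt10 were called higher and the basal genes Krt15 and Itgb4 lower. The median log2 fold change of the tested genes of this list was -0.10, so the rise of the sum was not shared by most of them. The part of keratinocyte content in the rises of both alarmin genes was not tested.

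Il33 (ENSMUSG00000024810.16, chromosome 19, 29925114 to 29960718, plus strand) was abundant in both groups and rose less. SKO 1 to 4 had 44.3, 51.0, 50.1 and 78.8 CPM, against 32.9, 36.5, 16.7 and 35.7 CPM in CTR 1 to 4. All SKO libraries lay above all CTR libraries, with SKO 4 again the highest of its group and CTR 3 well below the other CTR libraries. The log2 fold change was 0.88 (SE 0.25, 95% interval 0.33 to 1.42, edgeR adjusted p = 0.0281), or 1.84-fold. The call ended without SKO 4 (log2 fold change 0.67, adjusted p = 0.0708), without CTR 1 (0.91, adjusted p = 0.0569) and in edgeR's robust fit (adjusted p = 0.0548). Without CTR 3 the rise was 1.6-fold (edgeR adjusted p = 0.0364). Per kilobase of exon, Il33 had 7.80 to 18.6 times the level of Tslp within each SKO library, against 24.9 to 175 times within each CTR library. The CTR ratios rest on 2 to 5 Tslp counts per library.

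The sequences before the RefSeq starts of Il33, Il7r and Il2rg are shown because these are the genes called higher for which the RefSeq promoter table (GRCm38.p6) has a window. That table matched 8 of the 9 members with 10 windows, each from 250 bases before to 50 bases after a start. Each window was searched on both strands for TTCNNNGAA (bound by STAT factors), TTC and GAA set 4 bases apart (the spacing preferred by STAT6, the relay of IL-4 and IL-13), TGANTCA (AP-1) and GGGNNTTCC or its form longer by 1 T (NF-kappaB). The 250 bases before each start are printed 5′ to 3′ on the gene's strand, with matches in capitals.
Il33, upstream start, chr19:29924863-29925112, plus strand: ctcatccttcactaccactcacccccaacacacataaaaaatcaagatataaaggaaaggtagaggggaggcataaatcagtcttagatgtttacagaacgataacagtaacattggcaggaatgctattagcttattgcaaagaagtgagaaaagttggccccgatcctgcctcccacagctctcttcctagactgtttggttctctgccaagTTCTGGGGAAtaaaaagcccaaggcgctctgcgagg
Il33, downstream start, chr19:29945540-29945789, plus strand: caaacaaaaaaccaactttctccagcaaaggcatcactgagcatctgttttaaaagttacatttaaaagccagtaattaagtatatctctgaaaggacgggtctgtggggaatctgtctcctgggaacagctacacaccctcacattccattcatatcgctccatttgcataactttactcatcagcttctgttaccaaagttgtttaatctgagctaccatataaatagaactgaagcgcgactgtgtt
Il7r, chr15:9529877-9530126, minus strand: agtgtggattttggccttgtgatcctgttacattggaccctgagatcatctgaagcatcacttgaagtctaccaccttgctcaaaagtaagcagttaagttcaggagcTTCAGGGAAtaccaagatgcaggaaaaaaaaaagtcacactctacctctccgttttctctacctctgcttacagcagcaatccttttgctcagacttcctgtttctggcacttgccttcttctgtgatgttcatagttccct
Il2rg, chrX:101268256-101268505, minus strand: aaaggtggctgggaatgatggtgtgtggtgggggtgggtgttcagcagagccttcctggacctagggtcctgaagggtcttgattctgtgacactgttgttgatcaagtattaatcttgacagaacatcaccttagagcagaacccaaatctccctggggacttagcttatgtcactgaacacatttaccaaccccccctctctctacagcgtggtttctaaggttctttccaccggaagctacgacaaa
The upstream Il33 window held TTCTGGGGAA, a match to the STAT6 spacing, at bases -36 to -27, where -1 is the base before the start. The Il7r window held TTCAGGGAA, a match to the general STAT pattern, at bases -142 to -134. The printed Il7r bases, this match included, lie inside the gene as GENCODE places it, with its start at 9530176 on the minus strand. Those before the downstream Il33 start also lie inside their gene. No match to any of these letters lay in the downstream Il33 window or in that of Il2rg. Of all 32851 windows in the table, 8.30% held TTCNNNGAA, 6.95% the STAT6 spacing, 7.81% TGANTCA, 5.82% GGGNNTTCC and 1.63% its longer form. Among members that were not called, Il4ra matched both NF-kappaB patterns with overlapping letters at bases 21 to 30 after its start, Il13ra1 held GGGTCTTCC and Il13ra2 held TGACTCA. A match is a string of letters and does not show binding, and the counts do not separate the 2 starts of Il33.

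**Figure D2:**
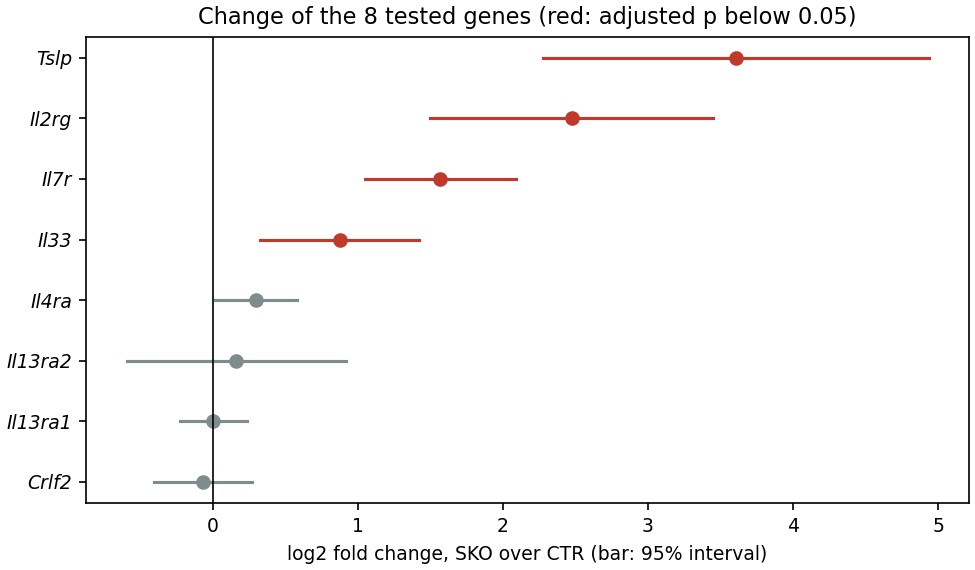
Log2 fold change of SKO over CTR (horizontal axis) for the 8 tested genes, with 95% intervals from the edgeR fit of 4 SKO and 4 CTR libraries. Tslp, Il2rg, Il7r and Il33 (red) were past the threshold, and the intervals of Crlf2, Il13ra1 and Il13ra2 span 0.

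The 2 chains of the TSLP receptor behaved differently. Crlf2 (ENSMUSG00000033467.12, chromosome 5, 109554709 to 109558993, minus strand), the chain that binds TSLP specifically, had 9.91, 10.3, 6.81 and 7.62 CPM in SKO 1 to 4, against 9.42, 8.23, 8.66 and 9.89 CPM in CTR 1 to 4. The groups overlapped fully, and the log2 fold change of -0.07 (SE 0.15, 95% interval -0.40 to 0.27, edgeR adjusted p = 0.782) did not pass the test. Its sign turned without SKO 3 (0.034). Il7r (ENSMUSG00000003882.4, chromosome 15, 9505788 to 9530176, minus strand), which also serves the IL-7 receptor of lymphocytes, had 2.94, 3.03, 3.21 and 1.85 CPM in SKO 1 to 4, against 0.768, 0.866, 0.990 and 1.08 CPM in CTR 1 to 4. Every SKO library lay above every CTR library, with SKO 4, the library highest in Tslp, the lowest of its group. The log2 fold change was 1.57 (SE 0.23, 95% interval 1.05 to 2.09, edgeR adjusted p = 0.00195), or 2.96-fold. Per kilobase of exon, Crlf2 was 6.63 to 12.8 times as abundant as Il7r within each SKO library, against 27.3 to 38.3 times within each CTR library.

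Il1rl1 (ENSMUSG00000026069.15, chromosome 1, 40429570 to 40465415, plus strand), the IL-33 receptor gene, was near the floor throughout. It had 3, 3, 10 and 2 counts in SKO 1 to 4, against 1, 0, 0 and 2 counts in CTR 1 to 4. The sums of 18 counts in SKO and 3 counts in CTR gave a scaled ratio of 6.0 (95% counting interval 1.75 to 31.8). SKO 3 alone gave 10 of the 18 counts, and no library reached the filter's minimum. Without the filter, its edgeR adjusted p of 0.0791 did not pass the threshold. Il1rap, the co-receptor chain that ST2 shares with the IL-1 receptor, had 58.4 CPM in SKO and 50.7 CPM in CTR on average, with a log2 fold change of 0.20 (edgeR adjusted p = 0.145).

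The chains of the IL-4 and IL-13 receptors that keratinocytes carry were abundant and changed little. Il13ra1 (ENSMUSG00000017057.9, chromosome X, 36112110 to 36171259, plus strand) had 231, 171, 193 and 207 CPM in SKO 1 to 4, against 216, 174, 202 and 209 CPM in CTR 1 to 4. The ranges nearly coincided, and the log2 fold change was 0.00 (SE 0.10, 95% interval -0.23 to 0.24, edgeR adjusted p = 0.982), an estimate whose sign turned without SKO 1, SKO 4 or CTR 2 (-0.067, -0.0099 and -0.057). Il4ra (ENSMUSG00000030748.9, chromosome 7, 125552120 to 125579474, plus strand) had 65.2, 48.9, 66.4 and 53.1 CPM in SKO 1 to 4, against 39.1, 53.3, 51.1 and 46.4 CPM in CTR 1 to 4. SKO 1 and SKO 3 exceeded every CTR library, whereas SKO 2 and SKO 4 lay within the CTR range. The log2 fold change of 0.30 (SE 0.13, 95% interval 0.02 to 0.58) had an unadjusted p of 0.0384 and an edgeR adjusted p of 0.111. Il13ra2 (ENSMUSG00000031289.10, chromosome X, 147383476 to 147429192, minus strand), the decoy receptor, was scarce, with 0.524, 1.31, 1.75 and 1.59 CPM in SKO 1 to 4, against 0.820, 1.15, 1.30 and 1.37 CPM in CTR 1 to 4. Its groups overlapped, SKO 1 being the lowest of all libraries, and its interval was wide (log2 fold change 0.16, SE 0.34, 95% interval -0.59 to 0.92, edgeR adjusted p = 0.759). Without SKO 3 its sign turned (-0.019).

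Il2rg (ENSMUSG00000031304.18, chromosome X, 101264378 to 101268255, minus strand), the common gamma chain of the receptors for IL-2, IL-4, IL-7, IL-9, IL-15 and IL-21, rose in every SKO library. It had 1.89, 1.26, 2.25 and 1.69 CPM in SKO 1 to 4, against 0.102, 0.289, 0.742 and 0.188 CPM in CTR 1 to 4. No CTR library reached the lowest SKO library, and CTR 3 stood above the other CTR libraries. The log2 fold change was 2.47 (SE 0.44, 95% interval 1.5 to 3.45, edgeR adjusted p = 0.00409), or 5.56-fold, from 138 counts in SKO and 24 in CTR. Without CTR 3 the rise was 8.86-fold (edgeR adjusted p = 0.00238). The annotated exons of Il2rg share 728 bases with Gm20489 on the same strand, and those of Il4ra share 571 bases with Gm44876 on the other strand. These genes had 0 and 1 counts in all, and reads falling in the shared bases may have been dropped from both.

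**Figure D3:**
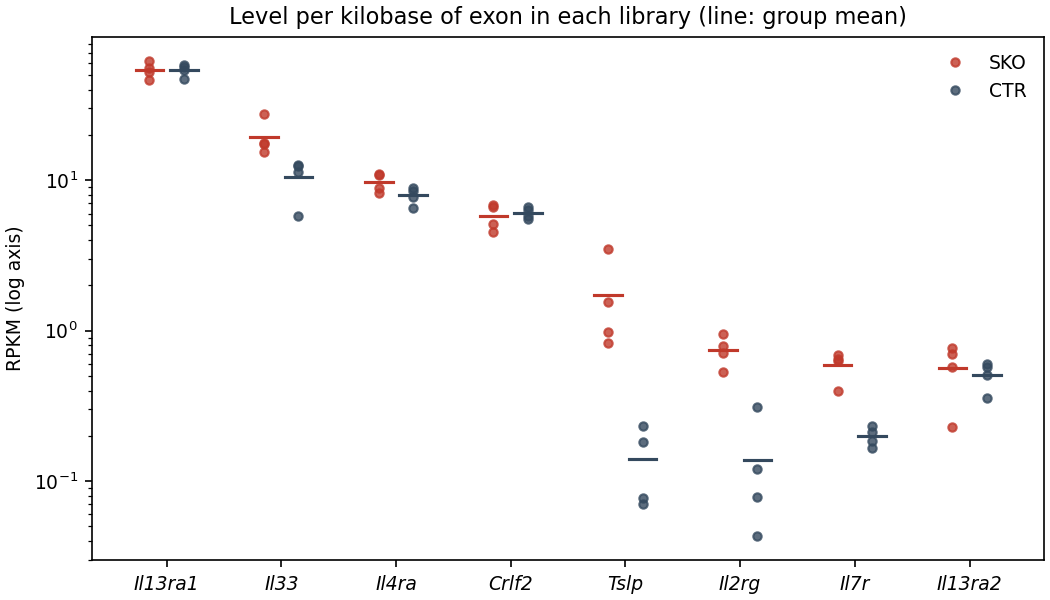
Level per kilobase of exon (RPKM, log axis) of 8 of the genes in each SKO (red) and CTR (dark blue) library, with group means as lines. Il13ra1 leads in both groups at about the same level, and Tslp, Il2rg and Il7r are the genes that shift most between groups. Il1rl1, with 0 counts in 2 CTR libraries, is not drawn.

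Set on the scale of RPKM, which divides by exon length, the order of the levels in SKO ran from Il13ra1 (54.1 ± 6.82 RPKM) through Il33 (19.4 ± 5.36), Il4ra (9.73 ± 1.45), Crlf2 (5.79 ± 1.13), Tslp (1.72 ± 1.23), Il2rg (0.744 ± 0.173), Il7r (0.591 ± 0.131) and Il13ra2 (0.568 ± 0.239) to Il1rl1 (0.0332 ± 0.0265; SD, n = 4). The ranges of neighbours overlapped for Tslp and Il2rg, for Il2rg and Il7r, and for Il7r and Il13ra2, and these neighbours cannot be ordered. In CTR the order began likewise with Il13ra1 (53.9 ± 4.92 RPKM), Il33 (10.6 ± 3.22), Il4ra (7.91 ± 1.04) and Crlf2 (6.05 ± 0.498), where the range of Il4ra overlapped with those of both neighbours. Il13ra2 followed at 0.508 ± 0.107 RPKM, above Il7r (0.199 ± 0.0296), Tslp (0.140 ± 0.0795) and Il2rg (0.138 ± 0.119), of which Tslp overlapped with both others, and Il1rl1 came last (0.00527 ± 0.00660; SD, n = 4). Of the 2 possible partners of IL-4R alpha, Il13ra1 exceeded Il2rg by 55.1 to 87.0 times within each SKO library, against 175 to 1356 times within each CTR library. The CTR ratios rest on 2 to 12 Il2rg counts per library.

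Some leukocyte transcripts moved with Il7r and Il2rg, genes that lymphocytes express, whereas the neutrophil and B cell marker sums were lower in SKO. The summed level of 5 markers shared by all leukocytes was 18.2 to 24.9 CPM in SKO and 8.56 to 13.9 CPM in CTR, with no overlap (two-sided exact permutation p = 0.0286, the smallest that 4 against 4 can give, adjusted p = 0.0667 over 14 marker lists). Laptm5, Coro1a, Cd53 and Cd52 of this list were called higher, and Ptprc was not (edgeR adjusted p = 0.0709). Of 10 T cell markers, 6 were tested: Cd3e, Cd247, Trbc2, Trdc and Lat rose and Thy1 fell. These counts of both lists stand beside 11.5% called higher and 12.2% lower over all tested genes. The median log2 fold change of the 6 tested T cell markers was 1.64, beside 1.57 for Il7r and 2.47 for Il2rg. The sum of the 10 T cell markers was 27.9 to 35.6 CPM in SKO and 21.5 to 32.4 CPM in CTR, with overlapping ranges (exact permutation p = 0.114, adjusted p = 0.178), and Trbc2 and Thy1 supplied most of it. CTR 3 had the highest leukocyte and T cell sums of its group, as it had the highest Il2rg. Relative to the all-leukocyte sum, Il7r stood at 0.102 to 0.160 in SKO and 0.0711 to 0.113 in CTR, which overlap, and Il2rg at 0.0667 to 0.106 in SKO and 0.0114 to 0.0533 in CTR, which do not. Relative to the T cell sum, Il7r stood at 0.0664 to 0.111 in SKO and 0.0305 to 0.0403 in CTR, and Il2rg at 0.0386 to 0.0779 in SKO and 0.00416 to 0.0229 in CTR, with no overlap for either gene. The CTR ratios of Il2rg rest on 2 to 12 of its counts per library. Thy1, which fell, weighs on the T cell sum, so ratios to that sum do not set Il7r and Il2rg against most T cell markers. The part of leukocyte number in the rises of Il7r and Il2rg was not tested.

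**Figure D4:**
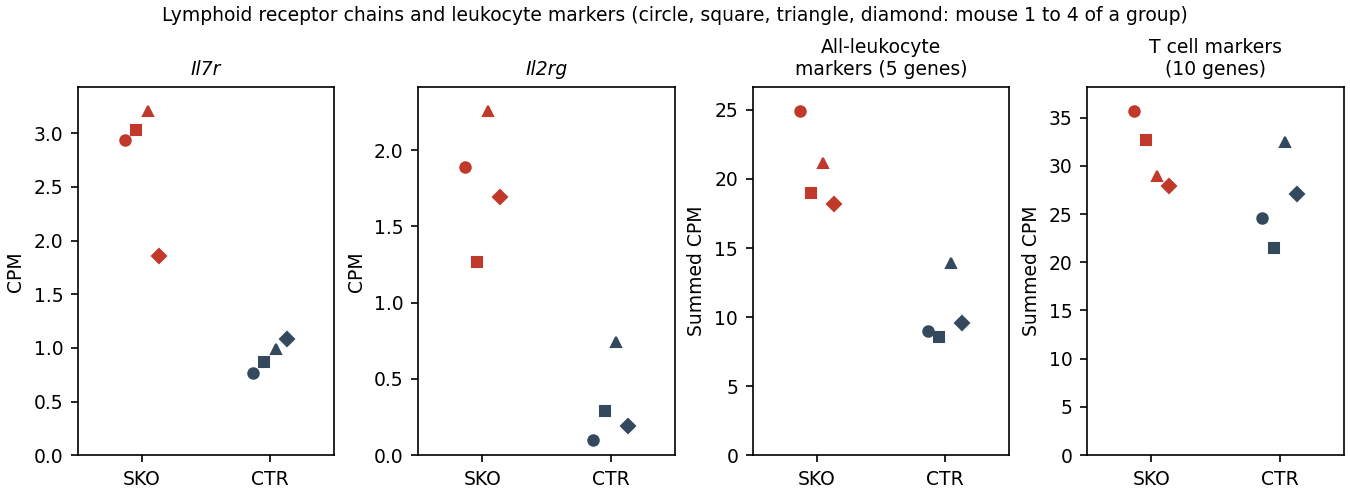
Il7r and Il2rg (CPM) beside the summed CPM of 5 all-leukocyte markers and of 10 T cell markers in each library, SKO in red and CTR in dark blue, with a symbol for each mouse of a group. Il7r, Il2rg and the all-leukocyte sum separate the groups. The T cell sum, most of it from Trbc2, which rose, and Thy1, which fell, does not.

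Markers of the cells that TSLP and IL-33 are best known to act on differed in their behaviour. The summed level of 10 Langerhans and dendritic cell markers was 197 to 296 CPM in SKO and 102 to 159 CPM in CTR, with no overlap (exact permutation p = 0.0286, adjusted p = 0.0667). Of the 8 tested, 6 rose (Cd207, Itgax, Cd74, H2-Aa, H2-Ab1 and H2-Eb1) and 0 fell, while Flt3 and Zbtb46 were not called. All 10 had counts. The part of cell number in the rise of this sum was not tested. Among all tested genes, 11.5% were called higher and 12.2% lower. Macrophage markers summed to 21.1 to 25.1 CPM in SKO and 14.9 to 20.4 CPM in CTR, and melanocyte markers to 295 to 512 CPM in SKO and 202 to 311 CPM in CTR. Neutrophil markers summed to 4.71 to 5.16 CPM in SKO and 5.37 to 12.8 CPM in CTR, and B cell markers to 0.253 to 0.847 CPM in SKO and 1.18 to 1.51 CPM in CTR. The macrophage sum was higher and the neutrophil and B cell sums were lower in SKO without overlap (exact permutation p = 0.0286, adjusted p = 0.0667 for each). Mast cell markers summed to 9.0 to 17.3 CPM in SKO and 10.3 to 23.4 CPM in CTR (exact permutation p = 0.657, adjusted p = 0.708). Nearly all of that came from Kit, which melanocytes also express, and the mast cell chymase gene Cma1 and the IgE receptor gene Fcer1a had 0 counts in all libraries. Basophil markers summed to at most 0.0481 CPM, with Mcpt8 and Prss34 at 0 counts, and eosinophil markers to at most 0.0619 CPM, with Epx and Prg2 at 0 counts. The list for group 2 innate lymphoid and Th2 cells summed to 437 to 568 CPM in SKO and 543 to 647 CPM in CTR (exact permutation p = 0.0571, adjusted p = 0.100). Rora and Gata3, which keratinocytes also express, made up nearly all of it. Gata3 fell (log2 fold change -0.53, edgeR adjusted p = 0.00592), as did the chemokine receptor gene Ccr4 (-1.63, adjusted p = 0.0119).

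The effector cytokine genes of the axis were at or near 0. Of 9 listed, Il9, Il31 and Il3 had 0 counts in all libraries, which allows at most 0.0386 CPM over the 4 libraries of either group. Il4, Il13 and Csf2 had 0 counts in SKO, against 2, 1 and 1 counts in CTR. Il5 had 6 counts in SKO and 2 in CTR, a scaled ratio of 3.0 (95% counting interval 0.536 to 30.4). Il25, an epithelial alarmin, had 5 counts in SKO and 12 in CTR, a ratio of 0.417 (0.115 to 1.27). The EGFR ligand gene Areg, which type 2 lymphocytes and keratinocytes make, was the member of this list that could be tested, with 3.3 ± 0.585 CPM in SKO and 3.63 ± 1.05 CPM in CTR (SD, n = 4 each, edgeR adjusted p = 0.719). At this depth no difference in Il4, Il9, Il13, Il31, Il3 or Csf2 was detectable.

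Around the axis, 17 of 73 tested genes in 8 pathway lists were called, 12 higher and 5 lower, a share close to that of all tested genes (23.7%). The median log2 fold change over all tested genes was -0.00. Among other receptor chains, 2 of 8 tested rose and 1 fell, with a median log2 fold change of -0.07. Osmr, a chain of the IL-31 and oncostatin M receptors, rose to 41.5 ± 2.58 CPM in SKO, against 31.5 ± 2.0 CPM in CTR (log2 fold change 0.40, edgeR adjusted p = 0.00656). Csf2rb, the shared beta chain for IL-3, IL-5 and GM-CSF, rose by 0.89 and Csf2ra fell by 0.88 on the log2 scale (edgeR adjusted p = 0.0345 and 0.0192). The Csf2rb call ended without SKO 1, SKO 2, SKO 3, CTR 3 or CTR 4 (adjusted p = 0.0521 to 0.0884), and reads of its near-identical copy Csf2rb2 may be split with it. Of common gamma chain cytokines and receptors, 2 of 8 could be tested, and neither Il15ra (15.3 ± 1.77 CPM in SKO and 13.6 ± 0.829 CPM in CTR) nor Il7 (3.32 ± 0.982 CPM in SKO and 2.39 ± 0.589 CPM in CTR; SD, n = 4 each) passed the test (edgeR adjusted p = 0.264 and 0.208).

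The lists of the relay downstream of the receptors held called genes in both directions, and their counts stand beside 11.5% higher and 12.2% lower over all tested genes. Of 11 kinases, STATs and adaptors, Jak3, the kinase that binds the common gamma chain, was among those that rose (log2 fold change 0.93, edgeR adjusted p = 0.0248) and 0 fell, with a list median of 0.01. Jak3 had 6.28 ± 2.02 CPM in SKO and 3.28 ± 0.640 CPM in CTR (SD, n = 4 each), and its call ended without SKO 4, CTR 1 or CTR 3 (adjusted p = 0.0549 to 0.0664). Of 12 feedback inhibitors of STAT signalling, the phosphatase gene Ptpn2 rose (38.1 ± 4.97 CPM in SKO and 28.3 ± 2.22 CPM in CTR; SD, n = 4 each; edgeR adjusted p = 0.0162) and 0 fell, while Ptpn1 stood at 114 CPM in SKO and 113 CPM in CTR. The list median was 0.04. Of 10 genes of the IL-33 receptor relay, 1 rose and 2 fell, with a list median of 0.01. Irak1, a kinase of the MyD88 complex, fell to 62.5 ± 1.66 CPM in SKO, against 95.4 ± 7.49 CPM in CTR (SD, n = 4 each; log2 fold change -0.61, edgeR adjusted p = 0.000656). Irak3, which restrains that complex, rose by 1.0 on the log2 scale (24.2 ± 6.21 CPM in SKO and 12.0 ± 3.25 CPM in CTR; SD, n = 4 each; edgeR adjusted p = 0.0115), and Tab2 fell by 0.31 on the log2 scale (adjusted p = 0.0101).

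Of 18 genes known to respond to IL-4, IL-13 or TSLP, 6 passed the filter, of which 3 rose and 0 fell, with a median log2 fold change of 0.62, where 11.5% of all tested genes were called higher and 12.2% lower. The 12 genes below the filter are not in this count. Ccl22, a ligand of CCR4, had 10.3 ± 1.37 CPM in SKO and 5.59 ± 0.963 CPM in CTR (SD, n = 4 each; log2 fold change 0.87, edgeR adjusted p = 0.00418). Postn, the gene of the matrix protein periostin, had 391.6 ± 48.8 CPM in SKO and 267 ± 49.4 CPM in CTR, and Cd274, the gene of PD-L1, had 11.5 ± 3.17 CPM in SKO and 7.11 ± 0.723 CPM in CTR (SD, n = 4 each; edgeR adjusted p = 0.0171 and 0.0269). The Cd274 call ended without SKO 2, SKO 4, CTR 1, CTR 3 or CTR 4 (adjusted p = 0.0533 to 0.0693). Eosinophil-attracting Ccl24 and Ccl26 and the type 2 macrophage gene Retnla had at most 1 count each in all libraries. Of 24 genes that regulate Tslp in keratinocytes, 23 were tested, 3 rose and 2 fell, with a median of -0.02. Cyp26b1, which degrades retinoic acid, fell to 30.2 ± 5.85 CPM in SKO, against 53.9 ± 6.81 CPM in CTR (SD, n = 4 each; log2 fold change -0.83, edgeR adjusted p = 0.00339). Klk5, a protease that activates the receptor PAR2, rose by 0.55, the NF-kappaB subunit gene Rela rose by 0.33 and Notch2 fell by 0.40 on the log2 scale (edgeR adjusted p = 0.0181, 0.00911 and 0.0434). The Klk5 call ended without CTR 1 (adjusted p = 0.0504), and the Notch2 call ended without any library other than SKO 3 (adjusted p = 0.0681 to 0.105).

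The genes nearest to Tslp over the 8 libraries, by root mean square difference of centred log2 CPM, were Lce3f (0.52), which encodes a late cornified envelope protein, Lcn2 (0.62), an antibacterial lipocalin, and Slpi (0.63), a protease inhibitor of barrier surfaces. Nearest to Il33 were Phf11c (0.23), Sh2d5 (0.25) and Wscd2 (0.25). Near to Il7r were Dock2 (0.17), a regulator of leukocyte migration, and Il1f6 (0.20), the gene of IL-36 alpha. Scd3 (0.40), Lce3f (0.42) and Lax1 (0.49), an adaptor of lymphocytes, were nearest to Il2rg. The genes nearest to the members that were not called lay at 0.06 to 0.20. These were Taf1d, Dut and Kansl2 for Crlf2, Rbm34, Ndufv3 and Dap3 for Il13ra1, Anapc13, Epha4 and Tmem154 for Il4ra, and Tmtc2, Jazf1 and Spink6 for Il13ra2. This ranking describes the 8 libraries and carries no test.

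**Figure D5:**
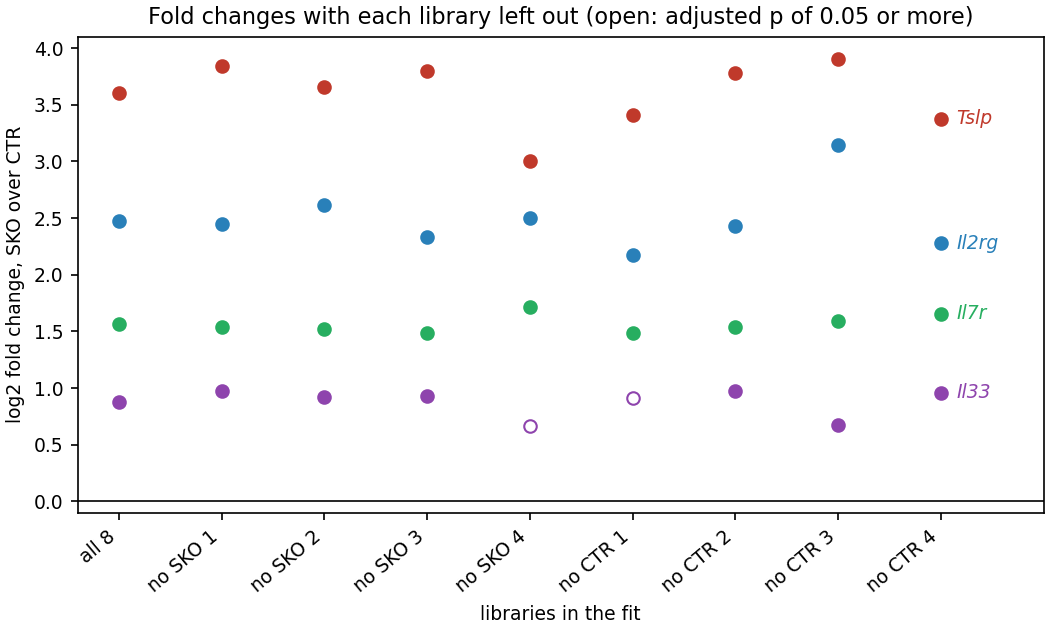
Log2 fold change of SKO over CTR (vertical axis) for Tslp, Il2rg, Il7r and Il33 with all 8 libraries and with each library left out in turn. Filled points have an edgeR adjusted p below 0.05, and Il33 alone has open points, without SKO 4 and without CTR 1.

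The level of Xist, which silences an X chromosome in female cells, also differed between the groups, at 330 to 574 CPM in SKO and 647 to 994 CPM in CTR. With its log2 level as a further term, 0 of the 8 tested members were called. The log2 fold changes of Tslp, Il2rg, Il7r and Il33 were then 2.68, 2.95, 1.86 and 0.62 (edgeR adjusted p = 0.237, 0.0998, 0.0780 and 0.531), with SEs of 1.08, 0.76, 0.42 and 0.48. Xist separates the groups without overlap, so its term and the group term cannot be told apart in large part.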

How the data were processed

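Poly-A RNA of 8 tail epidermis samples was sequenced as stranded libraries, per the labels' protocols. The deposited values are raw read counts per gene, whole numbers without normalization. The submitters' processing notes name featureCounts 1.4.6, STAR 2.4.1d, Bowtie2 2.2.4 and cutadapt 1.7.1 among the tools, and the build GRCm38. The strand setting and the treatment of multiply matching reads are not given in the sources used here. GENCODE M21 supplied symbols, positions and exon lengths for 46488 of 46983 identifiers.

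The test was that of edgeR 4.0.16 under R 4.3.3 (glmQLFit and glmQLFTest, two-sided, group as the only term, TMM factors, filterByExpr, 15638 genes, Benjamini-Hochberg adjustment, threshold 0.05), after a check on simulated data. Counting intervals of ratios are exact binomial. Sums of marker lists were compared as log2(CPM + 0.5) by exact permutation over 70 assignments in scipy 1.17.1. Alternatives used DESeq2 1.42.0, limma 3.58.1, other factors and filters, a Xist term and leaving out each library. Members and lists were chosen with earlier results of these data known. From each pathway list, at most 4 called genes were named, by size of change and only above 1 CPM on average, or the most abundant ones to reach 2. The 3 nearest genes of each tested member were named too. A few genes that this rule picks are not reported here. Replicate numbers follow accession order and were not used to pair mice. Other genes were named after their values were seen. Protein sequences were not used here.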

Additional observations from a re-analysis of the deposited data

Results flagged for a closer look

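Of 18 groups of 4 libraries (9 genes in SKO and in CTR), 1 held a library far from the others. Il1rl1 in SKO 3 had 0.501 CPM (10 counts), and its gap to the next library was 0.870 of the group's range, above the critical value of 0.829. Chance flags about 5% of such groups.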

How the results depend on the processing

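Over all alternatives, 563 values of 42 results were recomputed, of which 506 kept their direction and side of the threshold (counts and levels: moved within the limits set), 43 values of single genes lost the call, 3 counts of called genes fell more than 1.5 times and 11 values changed sign. With Xist as a further term 60 genes, 0 members and 0 pathway genes were called, against 3700, 4 and 17 without it, and Il13ra1 (-0.32), Areg (0.16) and Notch2 (0.066) changed sign. All 20 called genes among the members and the named pathway genes lost their call with that term. Without 1 library each, 2589 to 4370 genes and 3 to 4 members were called, and log2 fold changes spanned -0.15 to 0.034 for Crlf2, -0.067 to 0.078 for Il13ra1, -0.019 to 0.43 for Il13ra2, -0.011 to 0.027 for Ptpn1 and -0.21 to 0.048 for Ppp1r8. The robust fit called 3 members, and DESeq2, limma-voom, the other scalings and the other filters each called 4. No paired analysis was run, because the labels give neither replicate numbers nor litters. Mouse numbers lie close together across the groups, and whether such mice were littermates is not given. Genes under about 0.518 CPM in most libraries, Il1rl1 and most effector cytokines among them, are limited by depth.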

Other observations

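Several listed genes, of the axis and of the cell type lists, fell under the count filter and yet had many more counts in SKO. The filter had removed 63 listed genes with counts: the member Il1rl1, pathway genes and cell type markers. Without it, 10 of the 63 were called higher in SKO and 0 lower. Of all 26685 genes tested in that fit, abundant ones included, 6.53% were called higher and 7.05% lower. Trac and Cd2 of the T cell list and C1qb and C1qc of the macrophage list were among the 10. The 10 genes have few CTR counts, and those named here were picked after their values were seen. Tnfsf4, the gene of OX40 ligand, which TSLP induces on human dendritic cells, had 29, 13, 14 and 5 counts in SKO 1 to 4, against 0, 0, 2 and 0 counts in CTR 1 to 4. SKO thus had 30.5 times as many after scaling (95% counting interval 8.09 to 258, edgeR adjusted p = 0.00165 without the filter). Ch25h, the gene of cholesterol 25-hydroxylase, had 76 counts in SKO and 3 in CTR, a ratio of 25.3 (8.35 to 126, edgeR adjusted p = 0.000720). Ccl17, which like Ccl22 encodes a ligand of CCR4, had 49 counts in SKO and 4 in CTR (ratio 12.3, interval 4.49 to 46.7, edgeR adjusted p = 0.00130).

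Some lymphocyte genes were called higher in that fit, and others of the same lists were not. Icos, a T cell costimulator, had 59 counts in SKO and 6 in CTR, Il2ra, the IL-2 receptor alpha chain, had 42 in SKO and 4 in CTR, and Il2rb, a chain shared by the IL-2 and IL-15 receptors, had 26 in SKO and 2 in CTR (edgeR adjusted p = 0.00454, 0.00412 and 0.00667). Klrg1, Ptgdr2, Ccr8 and Crtam, listed with Icos and Il2ra as markers of group 2 innate lymphoid and Th2 cells, were not called (edgeR adjusted p = 0.401, 0.489, 0.561 and 0.951), and Gata3 and Ccr4 of that list fell with the filter in place. In SKO 4, the library with the most Tslp, Il2ra had 2 counts, against 11, 15 and 14 counts in SKO 1 to 3. Il2rb had 4 counts there, against 5, 8 and 9, and Icos had 16, against 15, 4 and 24, so these genes did not share 1 pattern.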
